A study of Mus musculus with 6 samples.

Results

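The regions described here are those centred on a LINE-1 (L1) element outside the young L1Md families: L1_Mm, L1_Mus, L1_Mur, L1VL, Lx and other older subfamilies. They come from a list of regions made from chromatin immunoprecipitation and sequencing (ChIP-seq) of PHF13, called SPOC1 in the library names, in mouse testis. A region was taken when it lay on chromosomes 1 to 19 or X and the repeat annotation at its centre named a LINE of the L1 family whose name does not start with L1Md. This rule found 771 regions among 23030 on those chromosomes, or 3.35% (Wilson 95% interval 3.12 to 3.59%), and among 39096 in the whole list. L1Md elements lay at the centre of 15946 regions, so the older subfamilies made up 4.61% of the L1 regions (4.30 to 4.94%). By the same naming, Y held another 2413 regions and unplaced contigs 40, which were left out by the rule.

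The series has 3 ChIP and 3 input libraries from testis of C57Bl/6 mice aged 5 weeks. Wild type is the label of 1 ChIP library and 2 inputs, and Phf13-/- that of 2 ChIP libraries and 1 input. The ChIP and input of 1 animal carry different genotypes, so genotype formed no groups, and the regions are not called binding sites. The labels name testis, an organ of germ cells and somatic cells, and no file used here holds expression values with which to check markers. The 1 deposited list pools whatever libraries entered it, with no value per library, so no value below has a replicate error and no test between samples was possible. Regions of a list are not replicates of one another, so groups of regions are set side by side by counts, medians and quartiles, with Wilson 95% intervals for shares. The intervals cover counting error only.

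L1 elements are retrotransposons that copy themselves through an RNA intermediate and their own reverse transcriptase. Most copies in a genome are cut short at the 5′ end and have gathered mutations, and only some of the youngest mouse families, among those named L1Md, still move. L1_Mus and L1_Mur elements were left by earlier L1 lineages of mice and related rodents, Lx elements spread around the radiation of murine rodents, and the L1M families are shared widely among mammals. In the male germ line, DNA methylation, repressive histone marks and the piRNA pathway hold L1 elements silent. PHF13 has a PHD finger that binds methylated histone H3.

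Many of the older L1 regions lay in a pair of stretches of X. A stretch from 25 to 35 Mb, called the wide X window below, held 172 of the 771 regions, and a stretch from 3 to 5 Mb, the narrow X window, held 42. Both windows were chosen with values of this list known, and coordinates of regions are in build mm10. The nearest gene symbol in the list was 1 of 5 predicted genes (Gm10486, Gm10058, Gm10096, Gm10488 and Gm10487) at 100 of the 172 regions of the wide window. The same share was not computed for other regions of that window, so the count is not read as a trait of older L1 regions. The list gives Gm10096 the alias Xmr-like, after a family of X-linked genes known from male germ cells. None of the 771 regions overlapped a promoter in the RefSeq promoter table (32851 promoters, build GRCm38.p6). All older L1 and L1Md regions were annotated as intergenic or intronic, so the rule itself may keep out regions at promoters. The lack of overlap is therefore not read as a result. The sequence under the regions was not used here. The promoters of 3 of these neighbours are shown because they let a reader see how alike these genes are before their starts. The letters are the 250 bases before the transcription start site (TSS), 5′ to 3′ on the strand of the gene, from RefSeq, build GRCm38.p6. Gm10486 lies on the plus strand (chrX:35067134-35067383), Gm10096 on the minus strand (chrX:28954703-28954952) and Gm10058 on the minus strand (chrX:27946886-27947135). In the Gm10096 line a capital marks a base that differs from Gm10486. The Gm10058 line ends at its own annotated start and carries no marks.
Gm10486: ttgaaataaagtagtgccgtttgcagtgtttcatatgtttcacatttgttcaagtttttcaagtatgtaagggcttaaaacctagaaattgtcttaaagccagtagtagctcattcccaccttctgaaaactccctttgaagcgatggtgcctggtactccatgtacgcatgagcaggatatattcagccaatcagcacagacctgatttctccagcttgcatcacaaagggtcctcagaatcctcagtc
Gm10096: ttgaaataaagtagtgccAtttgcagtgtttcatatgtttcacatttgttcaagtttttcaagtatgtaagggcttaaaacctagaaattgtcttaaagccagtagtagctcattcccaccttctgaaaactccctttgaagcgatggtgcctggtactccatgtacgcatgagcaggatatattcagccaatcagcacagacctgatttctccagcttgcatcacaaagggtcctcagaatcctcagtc
Gm10058: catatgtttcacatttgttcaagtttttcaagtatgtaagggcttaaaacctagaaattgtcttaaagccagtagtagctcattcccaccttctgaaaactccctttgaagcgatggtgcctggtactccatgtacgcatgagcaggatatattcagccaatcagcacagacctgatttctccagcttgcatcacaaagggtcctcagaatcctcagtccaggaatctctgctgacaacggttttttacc
Gm10487 had the same 250 bases as Gm10486, with 0 differences, and Gm10096 differed at 1 base. The annotated start of Gm10058 is shifted by 31 bases, and over the 219 bases that it shares with Gm10486 there were 0 differences. The same was true of Gm10488. The list also gives 1 symbol at several places. In the wide window the symbol of the nearest gene had a RefSeq location for 124 regions, and for 92 of them neither end of that gene lay at the listed distance (within 1000 bp). On the autosomes this was so for 65 of 413. Other starts of the same gene count here as no match. The 41 regions given Gm10486, for example, ran from 27.6 to 35.1 Mb, and 9 of them were placed by its RefSeq location. Gene names on X are therefore printed below as symbols of the list, and a count per symbol is not a count at 1 gene.

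By subfamily, L1_Mm came first with 308 regions, or 39.9% (36.55 to 43.45%). L1_Mus held 165 regions (21.4%, 18.7 to 24.4%) in 4 subfamilies, and Lx 142 (18.4%, 15.8 to 21.3%) in 20. L1_Mur held 85 (11.0%), L1VL 33 (4.28%) and the mammal-wide L1M families 33 (4.28%). MusHAL1, a relative of L1 that lacks the second open reading frame, held 3 regions, and L1_Rod 2. In all there were 40 subfamilies. The 8 subfamilies with 20 or more regions held 76.5% of the set, and 16 subfamilies had fewer than 5 regions. How common each subfamily is in the genome was not used here, and the shares say nothing of enrichment.

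The older L1 regions were short. They had a median length of 627 bp, with quartiles of 500 and 872 bp, and 47.5% were 500 bp long or less. L1Md regions had a median of 767 bp (500 and 1382 bp), with 31.9% at 500 bp or less. All other regions of these chromosomes had a median of 625 bp. L1_Mm regions had a median of 646 bp, and L1_Mus and L1_Mur regions had medians of 500 bp each. The older L1 regions covered 647 kb, or 2.51% of the covered length on these chromosomes, and held 2.02% of the summed score.

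Each region carries a score from the authors, of unstated unit. It grows with length, so it was divided by length to give a score per kb. The median score was 12.7, with quartiles of 7.86 and 22.6, a lowest value of 4.25 and a highest of 183.9. Scores under 10 fall on a grid with a step of 0.2124. If a step were 1 tag, the median member would rest on 60 tags (95% Poisson interval 45.8 to 77.2) and the lowest on 20 (12.2 to 30.9). The score per kb had a median of 21.2 (quartiles 12.7 and 30.2), against 28.8 (24.2 and 32.8) at L1Md regions and 24.6 (13.2 and 32.2) at all other regions. The values formed a pair of peaks. In bins of 2 units, 130 regions lay between 10 and 12 and 60 between 30 and 32, with 33 to 35 per bin from 18 to 24. The lowest score per kb was 8.5 in this set and 8.19 over all regions on these chromosomes. The lower peak thus lay close to the lowest values listed, and whether a cut-off of the list shaped it was not tested.

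L1_Mm and the remaining subfamilies differed in where they fell between these peaks. The median score per kb was 28.9 at L1_Mm regions (95% interval of the median 27.7 to 29.8), next to 28.8 at L1Md regions. It was 16.65 at L1_Mus (15.3 to 18.7), 13.2 at Lx (12.3 to 16.6) and 13.2 at L1VL (11.9 to 14.3). At L1_Mur it was 12.7 (12 to 13.2) and at L1M 11.3 (10.6 to 12.1). L1_Mm was the 1 group of these 6 whose median lay near the L1Md value. Of all autosomal and X regions, 25.2% have a score per kb of 22 or below, called low here. Low values were found at 398 of the 771 older L1 regions (51.6%, 48.1 to 55.1%) and at 55 of 308 L1_Mm regions (17.9%). Low scores per kb were found at 32 of 33 L1M, 29 of 33 L1VL, 73 of 85 L1_Mur, 98 of 142 Lx and 108 of 165 L1_Mus regions. A score per kb of 36.4 or above was held by 10% of all regions and by 61 older L1 regions (7.91%, 6.21 to 10.03%), of which 42 were L1_Mm.

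**Figure D1:**
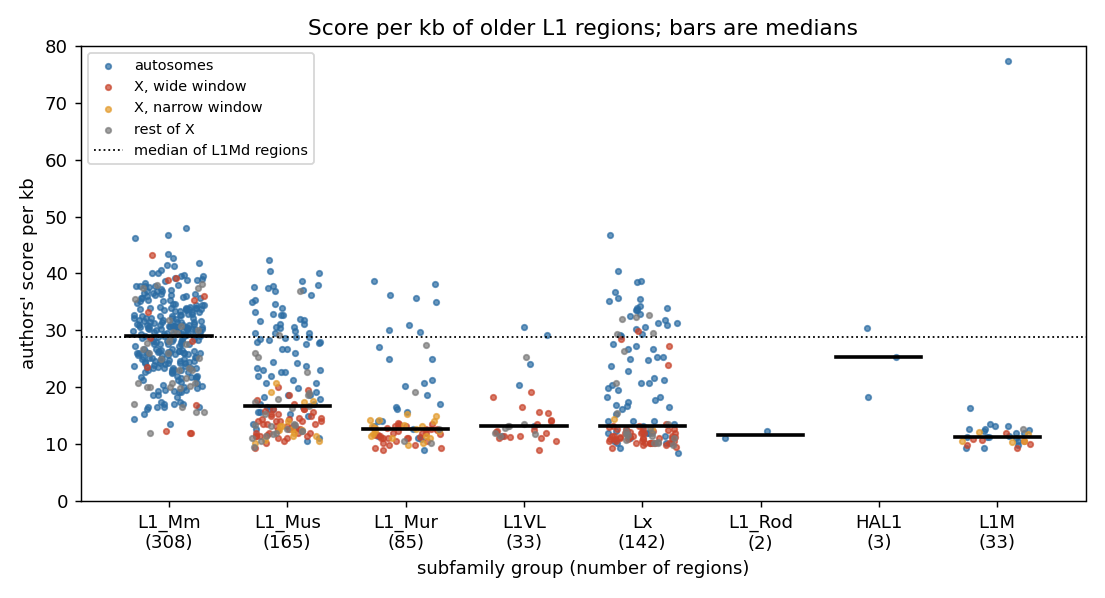
Score per kb (authors' score divided by length in kb, vertical axis) of each of the 771 older L1 regions by subfamily group, coloured by place, with the group median as a bar and the L1Md median as a dotted line; horizontal spread within a group carries no value. The L1_Mm median of 28.9 lies on the L1Md line, and the points of both X windows gather near 12 in every group that has them except L1_Mm.

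The score per kb also differed by place. On the autosomes the 461 older L1 regions had a median of 27.6 (quartiles 20.8 and 32.6), against 29.1 at L1Md regions. In the wide X window the median was 12 (11 and 14) and in the narrow window 12.5 (11.4 and 13.9). On the rest of X, with 96 regions, it was 18.3 (12.3 and 26.1). The rest of X includes regions just past the window edges, such as chrX:24982913-24983571 and chrX:35352410-35353443. Its values are therefore not free of these dense stretches. Low scores per kb were held by 159 of 172 regions in the wide window, 42 of 42 in the narrow window, 61 of 96 on the rest of X and 136 of 461 on the autosomes. The windows were thus filled almost wholly from the lower peak.

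Older L1 regions shared these low values with the other regions of the windows, but L1Md regions did less so. In the wide window the 405 regions off L1 elements had a median score per kb of 11.9, with 12.1 at LTR elements and 11.8 where no repeat was named. The 125 L1Md regions there had a median of 23.0 (17.2 and 27.5). In the narrow window the values were 12.7 at the 75 regions off L1 and 24.5 at the 14 L1Md regions. Within the wide window the 13 L1_Mm regions had a median of 28.7, from 11.9 to 43.2, while the 159 regions of all other older subfamilies had 11.9. No region of L1_Mm lay in the narrow window. Promoters of 4 genes in the wide window were identical or nearly so over the bases compared, no gene of the narrow window was compared, and the part of read placement in these values was not tested.

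**Figure D2:**
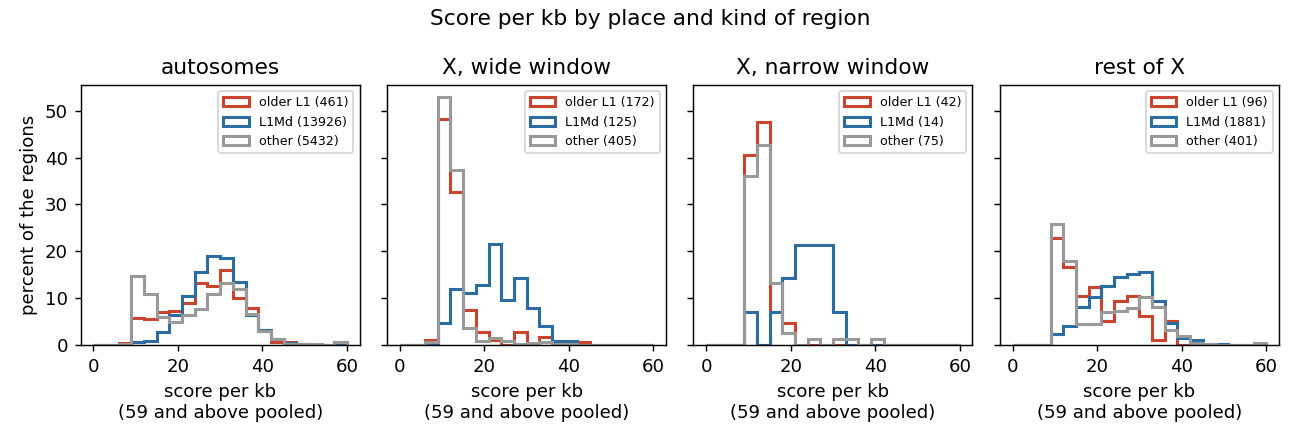
Distribution of the score per kb (horizontal axis, values of 59 and above pooled) as a percent of the regions of each kind (vertical axis) in 4 places, for older L1 (red), L1Md (blue) and other regions (grey), with the number of regions in brackets. Older L1 follows L1Md on the autosomes, apart from a shoulder near 12, and follows the other regions in both X windows.

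The difference from L1Md varied with place and subfamily. Over the whole set the log2 difference of median score per kb, older L1 minus L1Md, was -0.44. On the autosomes alone it was -0.08, and without both X windows -0.14. Taken chromosome by chromosome, older L1 had the lower median on 14 of 20, with a median difference of -0.04. Chromosome X (-1.05), chromosome 5 (-0.78) and chromosome 14 (-0.45) had the lowest values. L1_Mm alone was lower than L1Md on 10 chromosomes and higher on 10. With L1_Mm left out, the remaining 463 older regions differed from L1Md by -1.08. On the autosomes these other subfamilies had a median score per kb of 22.6 and L1_Mm 29.4. Autosomal medians were 27.9 at L1_Mus (76 regions), 22.2 at Lx (68), 20.2 at L1_Mur (27) and 11.9 at L1M (20), so the L1M families stayed in the lower peak also away from X.

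The 7 subfamilies with 20 or more regions other than L1_Mm had lower values in the wide window than on the autosomes. L1_Mus3 (88 regions) had a median score per kb of 21.9 at its 32 autosomal regions and 13.2 at its 36 regions of the wide window. L1_Mus1 (44) had 28.9 at 27 autosomal regions and 14.7 at 8 regions of the wide window. For L1_Mus2 (28) the values were 31.5 at 12 autosomal and 12.3 at 4 wide-window regions. The autosomal copies of all 3 were close to L1Md or between it and the windows, and their copies in the window were not. L1_Mur2 (43) had 16.2 at 13 autosomal regions and 11.9 at 19 in the wide window. L1_Mur3 (31) lay on X at 27 of its regions, and its 4 autosomal ones had a median of 25.1. L1VL2 (28) had 1 autosomal region, and its 19 regions in the wide window had a median of 12.3. Lx5c (20) had 13 regions in the wide window with a median of 12.6 and 3 autosomal ones with 24.7. Among smaller subfamilies, Lx (16 regions of that exact name) had a median of 29.8, while L1M2 (18) had 10.7, with no value above 12.7.

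By chromosome, X carried 310 of the regions (40.2%), against 12.7% of the L1Md regions. The autosomes carried 0.189 ± 0.068 older L1 regions per Mb (SD, n = 19 chromosomes), with the lowest value on chromosome 11 (0.0505) and the highest on chromosome 7 (0.309). X carried 1.85 per Mb, 9.80 times the autosomal mean and above all 19 autosomes. For L1Md the autosomal mean was 5.68 ± 0.99 per Mb (SD, n = 19), and X carried 12.05, a ratio of 2.12. Without the wide window the X ratio of older L1 regions was 4.64, and without both windows 3.27. Regions just past the window edges still count in both ratios. Older subfamilies made up 13.3% of the L1 regions on X and 3.24 ± 1.18% on the autosomes (SD, n = 19), where the highest value was 5.10%. Subfamilies took unequal parts in this: X held 27 of 28 L1VL2 regions, 56 of 88 L1_Mus3 regions and 49 of 308 L1_Mm regions.

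**Figure D3:**
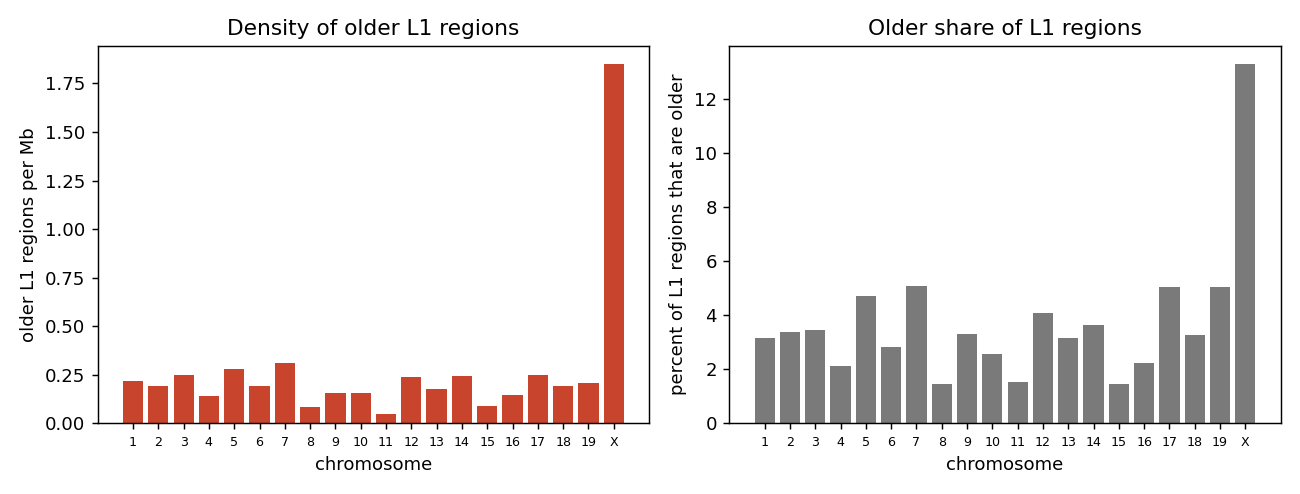
Older L1 regions per Mb of chromosome (left) and older L1 regions as a percent of all L1 regions (right), with 1 bar per chromosome, both axes from 0. X stands at 1.85 per Mb and 13.3%, above each of the 19 autosomes on both scales.

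The 1 Mb windows with the most older L1 regions were all on X. They ran from 30 to 31 Mb with 27 regions, 28 to 29 Mb with 26, 4 to 5 Mb with 25, 29 to 30 Mb with 25 and 27 to 28 Mb with 23. Their median scores per kb lay between 12.4 and 12.7. The autosomal windows with the most were on chromosome 5 from 94 to 95 Mb, with 10 regions, and on chromosome 7 from 15 to 16 Mb, with 9. These clusters had unlike scores. The 10 regions on chromosome 5 had a median score per kb of 15.1, from 13.2 to 20.2, at L1_Mur2 (5 regions), Lx5, Lx5b and L1MA4 elements near the uncharacterised genes AU018829, Gm3139 and Gm6367. Those on chromosome 7 had a median of 35.6. Both autosomal windows were named after their values were seen.

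At Obox2, an oocyte-specific homeobox gene, 8 regions had that gene as the nearest (chr7:15131584-15458898, all intergenic). Centred on L1_Mur1 (5 regions), L1_Mur3 (2) and L1_Mus3 (1), they had scores from 17.8 to 46.7 and scores per kb from 30.1 to 42.4. All 8 exceeded the L1Md median, although the L1_Mur group as a whole had a median of 12.7. The nearest L1Md region lay 13.1 to 224 kb away, so none of the 8 was beside a listed young element. L1_Mur1 had 11 regions in all, with a median score per kb of 25.

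Most of the older L1 regions were intergenic by the authors' annotation, at 624 of 771 (80.9%, 78.0 to 83.6%), and the other 147 (19.1%) were intronic. L1Md regions were intergenic at 79.6%. Intronic shares were 24.4% for L1_Mm, 48.5% for L1VL and 7.06% for L1_Mur. To the nearest TSS the median distance was 87.2 kb (quartiles 26.7 and 227 kb), against 130 kb for L1Md regions. On the autosomes the older L1 median was 120 kb, in the wide X window 50.1 kb and in the narrow window 25.6 kb. Within 10 kb of a TSS lay 70 older L1 regions (9.08%, 7.25 to 11.3%), against 4.62% of L1Md regions and 6.76% of all regions on these chromosomes.

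A TSS lay within 5 kb of 18 regions (2.33%, 1.48 to 3.66%), against 1.18% of L1Md regions. The share over all regions on these chromosomes was 2.21%, inside that interval. No older L1 region was closer than 2104 bp, though the rule may keep out regions at promoters. The closest lay at Olfr774, an olfactory receptor gene (L1_Mm, chr10:129239197-129241313, score 63.1, intergenic). The next lay on X 2240 bp from a start that the list calls Gm10486 (L1_Mm, chrX:29973729-29974358, score 10.6), although RefSeq has Gm10488 there. An intronic L1_Mus3 region lay 3111 bp from a start called Gm10058 in the list, where RefSeq has Gm10487 (chrX:30840077-30840577, score 5.73). Another L1_Mus3 region lay 3129 bp from Gm6121 (chrX:26932290-26932790, score 5.31). A pair of Lx9 regions was listed in intron 4 of 9 of Amy2a5, an amylase gene (chr3:113255018-113255829, score 9.98, and chr3:113287610-113288459, score 10.2). They were 3276 and 3277 bp from a TSS of that symbol, and 1 of them lay within the RefSeq location of the gene. An L1_Mus3 region lay 3479 bp from a start called Gm10488 in the list, where RefSeq has Gm10486 (chrX:35070439-35071350, score 14.9). The last 3 of the 10 nearest lay at Acnat2 (L1_Mm, chr4:49403838-49404716, 27.0), Gm8898 (L1M2, chr2:175926684-175927184, 5.73) and 4921511C20Rik (L1_Mm, chrX:127398021-127398899, 27.0). Acnat2 encodes an acyltransferase that joins fatty acids to amino acids. The L1_Mm regions among these 10 scored from 10.6 to 63.1 and the others from 5.31 to 14.9.

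On X the same subfamily often recurred at the same distance from a listed TSS. A region was counted as recurring if it lay within 50 kb of a TSS and its signed distance was within 100 bp of that of another region of the same subfamily and chromosome, more than 5 kb away. Of the regions within 50 kb of a TSS, 42 of 86 recurred in the wide window and 17 of 33 in the narrow window. On the rest of X 9 of 34 did so, all but the region at chrX:153823824-153824324 just past the edges of the wide window. On the autosomes 14 of 144 did so, and no such share is given here for other kinds of region. L1_Mur2 lay 25.5 to 25.8 kb upstream at 9 places with 8 different nearest symbols, among them Gm10921, Gm2799 and Gm3706, spread over 29.7 Mb of X. L1_Mur3 lay 5.31 to 5.40 kb upstream at 6 places, and L1_Mus1 9.16 to 9.31 kb upstream at 5. Each of these 3 sets held regions of both windows. L1VL2 lay 13.2 to 13.4 kb downstream of a TSS listed as Gm10058 or Gm10488 at 5 places, of which 2 lay past the wide window, with scores from 9.13 to 15.7. L1_Mus3 lay 4.23 to 4.30 kb downstream at 4 places, with scores from 7.01 to 9.98. The sequence around these members was not compared, and they were not treated as independent of one another. The sets were picked after their values were seen.

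**Figure D4:**
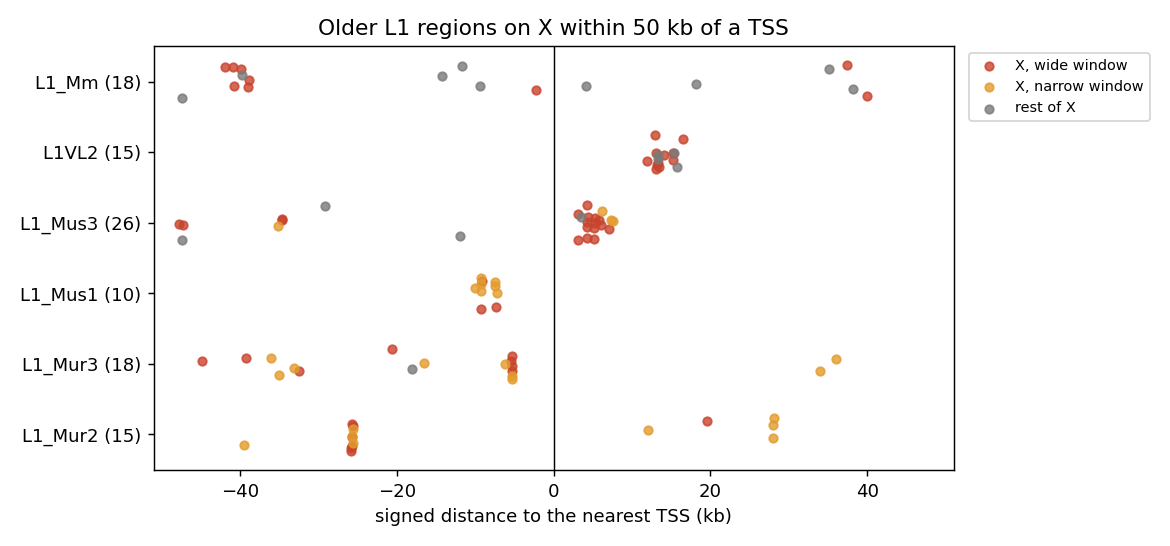
Signed distance in kb from the nearest TSS (horizontal axis, negative upstream) of older L1 regions on X within 50 kb of a TSS, for 6 subfamilies (rows, number of regions in brackets), coloured by place; vertical spread within a row carries no value. Stacks of points at 1 distance, such as L1_Mur2 near 25.5 kb upstream and L1VL2 near 13.2 kb downstream, are regions at different places with the same distance to a listed start.

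The symbols of the nearest genes were few on X and scattered elsewhere. The 771 regions had 466 different symbols, of which 361 were nearest to 1 region each, while the 10 most frequent accounted for 172 regions (22.3%). Of these 10, 9 were predicted genes on X. They were Gm10486 (41 regions, median score per kb 12.3), Gm10058 (38, 12.7), Gm10096 (22, 12.3), Gm10488 (14, 13.4), Gm10921 (14, 12), Gm14351 (11, 11.5), Gm10487 (8, 11.5), Gm2799 (8, 12) and Gm3706 (8, 11.6). Obox2 (8, 35.9) was the last. Predicted genes whose symbols start with Gm were nearest to 42.0% of older L1 regions and 13.0% of all regions.

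Gene families were counted by the symbol of the nearest gene for 29 families. Of these, 13 had no older L1 region, including Mage, Rhox and Hox genes (0 of 771 each, with a Wilson upper limit of 0.496%), and 5 had 5 or more. Over all regions the shares were 0.304% for Mage, 0.0304% for Rhox and 0.0043% for Hox. Each lay under that limit, so these counts do not set the older L1 regions apart. Vomeronasal receptors of the Vmn2r family, which detect pheromones, were nearest to 13 older L1 regions (1.69%, 0.99 to 2.86%), against 1.11% of all regions. Olfactory receptors were nearest to 7 (0.91%, 0.44 to 1.86%), against 1.91% of all. All 7 were autosomal, while 40.2% of older L1 regions and 13.9% of all regions lay on X. No family share was computed for the autosomes alone. The values were 7 (0.91%, against 0.90%) for Vmn1r, 6 (0.78%, against 0.97%) for Zfp zinc finger genes and 6 (0.78%, against 0.66%) for Cyp genes of the cytochrome P450 family. The shares over all regions lay inside the intervals for Vmn2r, Vmn1r, Zfp and Cyp, and above the interval for olfactory receptors. Among families with fewer regions, Spin2 was nearest to 4 (0.52%, 0.20 to 1.33%), against 0.035% of all regions, a share below the interval. None of these 4 was autosomal, and their median score per kb was 12.7. All 5 regions of L1MEg, a mammal-wide subfamily, had a Vmn2r gene on chromosome 7 as the nearest, with scores from 4.67 to 8.07. L1MEg was singled out after its values were seen.

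Most host genes held a single intronic region. The transcripts named for all 147 intronic regions matched the RefSeq table, giving 114 host symbols, of which 100 had 1 region. The RefSeq location of the host held 119 of the 147 regions, with 16 of the 28 exceptions in the wide X window. The 5 host symbols with 3 or more were Gm10096 (11 regions, median score per kb 13.2), Gm10147 (8, 15.0), Gm6367 (4, 16.6), Gm6121 (3, 11.4) and Lrp1b (3, 33.5). All regions of Gm6121 and Lrp1b lay in the RefSeq location of the gene, and none of those of Gm10096, Gm10147 and Gm6367 did, so these 3 counts are not counts in 1 gene. Lrp1b, a large receptor of the LDL receptor family, had the highest value of the 5. With predicted and uncharacterised genes left out, the intronic region with the highest score lay in intron 1 of 17 of Prkg1, which encodes a cGMP-dependent protein kinase (L1_Mus2, chr19:31724079-31729603, score 183.9). Lrp1b followed in intron 2 of 90 (Lx2B2, chr2:42084055-42088602, 152.5), then Hdac9, a histone deacetylase, in intron 27 of 27 (Lx5c, chr12:34067475-34073757, 149.5). Cyp2c68, a cytochrome P450, held an Lx2 region (chr19:39691761-39695022, 114.7). The lower scores were in Chst9 (score 92.2), the glutamate receptor gene Grm8 (90), Lingo2 (85.8), the homeobox gene Meox2 (84.5) and Mpp7 (80.1), of which the region in Grm8 was at L1_Mus1 and the rest at L1_Mm. The scores per kb of these 9 lay between 23.8 and 41.4, so their high scores came with length, from 2152 to 6282 bp.

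The 5 regions with the highest score in the whole set were the 3 in Prkg1, Lrp1b and Hdac9 and a pair of intergenic ones. The latter lay nearest to Slc14a2, a urea transporter gene (L1_Mus2, chr18:78697777-78702727, score 154.2), and to Klhl13 (Lx3B, chrX:23523241-23527464, 134.9). The longest were those in Hdac9 (6282 bp) and Prkg1 (5524 bp) and the one near Slc14a2 (4950 bp). None of these 5 was centred on L1_Mm. By score per kb the highest value was 77.3, at an L1MEd element on chromosome 10 (chr10:72296909-72297659, score 58.0, length 750 bp). It was the 1 L1M region of 33 above 22. The next 4 were L1_Mm on chromosome 9 (chr9:81301054-81301935, 48.0 per kb), Lx on chromosome 1 (chr1:96192115-96192615, 46.8), L1_Mm on chromosome 7 (chr7:69852140-69852640, 46.8) and L1_Mm on chromosome 1 (chr1:146192916-146193416, 46.2). All 5 were intergenic, and each lay more than 170 kb from a TSS.

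The older L1 regions were often some distance from a listed L1Md region. The median gap to the nearest was 38.8 kb, from 503 bp to 1976 kb, against 3.44 kb between an L1Md region and the next L1Md region and 72.0 kb for all other regions. Within 10 kb of an L1Md region lay 164 older L1 regions (21.3%, 18.5 to 24.3%), against 56.7% of L1Md and 10.2% of other regions. Within 1 kb the values were 7.47% for L1_Mm (5.03 to 11.0%), 3.24% for the remaining older subfamilies (1.97 to 5.28%), 27.9% for L1Md and 0.35% for other regions. All older L1 regions under 10 kb from an L1Md region had a median score per kb of 24.6, against 20.7 farther away. For L1_Mm the medians were 29.1 at 70 regions under 10 kb and 28.7 at 238 farther away, and for the remaining autosomal subfamilies 25.9 at 36 regions and 21.8 at 166. Among the highest scores, the regions in Lrp1b and near Klhl13 lay 503 and 519 bp from an L1Md region, while the one near Slc14a2 lay 159 kb away. Regions were assigned by the repeat at their centre, so a region may also cover neighbouring elements, which the list does not name.

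**Figure D5:**
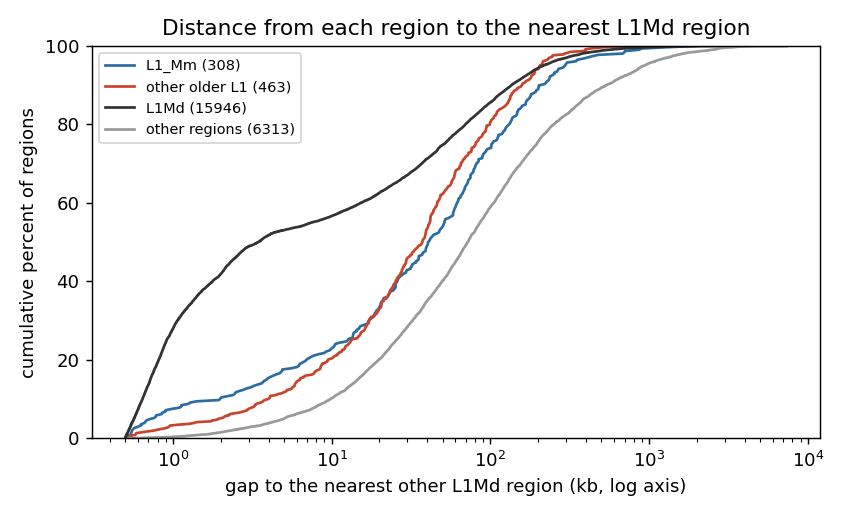
Cumulative percent of regions (vertical axis) by the gap in kb to the nearest other L1Md region (horizontal axis, log scale) for L1_Mm, the remaining older L1 subfamilies, L1Md and all other regions, with the number of regions in brackets. Both older L1 curves lie between the L1Md curve and that of the other regions at 1, 5, 10 and 50 kb.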

How the data were processed

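ChIP and input libraries of mouse testis (3 each) were sequenced, and 1 list of regions was deposited for the whole series. Bowtie2 2.2.2, SAMtools, HOMER 4.6 and build mm10 are named per the submitters' processing notes, without roles. Per the file headers, the deposited list was annotated by HOMER's annotatePeaks against mm10. How regions were called, and from which libraries, is not given in the sources used. Its deposited score is the authors' own value per region, with no unit stated per the file headers. Depth per library is unknown.

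Regions were chosen by chromosome and repeat name and grouped by the start of that name. Score per kb, Wilson intervals, intervals of medians from order statistics, gaps between region edges and distances to a TSS were computed with NumPy 2.4.6, pandas 2.3.3 and SciPy 1.17.1 under Python 3.11.15, and drawn with matplotlib 3.10.9. The span of a chromosome was taken between its outermost genes or regions, with genes starting below 3 Mb left out. Hosts came from the transcript in the annotation, matched to RefSeq (GRCm38.p6). A symbol was compared with the 1 RefSeq location of its gene, allowing 1000 bp. The gap and median steps were tested on simulated data. Named were the 5 regions with the highest score and score per kb, the 3 longest, the 10 nearest to a TSS, hosts with 3 or more regions, the 10 intronic regions with the highest score (1 is not reported here), the 10 most frequent nearest genes and the 5 fullest 1 Mb windows. The set, the gene families, the subfamily groups and both X windows were chosen with earlier results of these data known. Alternatives are given in the closing section.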

Additional observations from a re-analysis of the deposited data

How the results depend on the processing

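Most of these values moved with fewer regions, other chromosomes or other distances, and the cause was not tested. In the upper 50% and 10% by score, the score that is compared also selected the regions. There the log2 difference of score per kb from L1Md, -0.44 in the main result, almost vanished with its sign reversed, at 0.0137 and 6.87e-05. It was -0.19 without regions of 500 bp or less, -0.0751 on autosomes, -0.18 without the wide X window, -1.11 with Y and unplaced contigs, -0.77 by score as deposited and -0.0356 as the median over chromosomes. Chosen after seeing the data, it was -0.14 without both X windows and -1.08 without L1_Mm. In the upper 50% and 10% by score the number of regions was 240 and 33, their share of all regions 2.07% and 1.42%, of L1 regions 2.56% and 1.565%, the score per kb 31.6 and 32.5 and the length 1060 and 2895 bp. There the TSS distance was 148 and 139 kb, the L1_Mm share 66.3% and 57.6%, L1_Mus 15.8% and 18.2%, Lx 13.3% and 24.2%, and the ratio of regions per Mb on X to the autosomal mean (X ratio) 2.61 and 4.27. The intergenic share was 66.7% in the upper 10%, and 4.17% lay within 10 kb of a TSS in the upper 50%. Without regions of 500 bp or less there were 405 regions, 2.79% of all and 3.60% of L1, with 26.2 per kb, 825 bp, 48.6% L1_Mm and 16.8% L1_Mus. On autosomes there were 461, 2.33% of all and 3.20% of L1, with 27.6 per kb, 77.9% intergenic, 120 kb to a TSS, 56.2% L1_Mm, 16.5% L1_Mus and 14.8% Lx. Without the wide X window the shares were 2.68% of all, 3.65% of L1, 49.2% L1_Mm and 15.2% Lx, with 25.4 per kb and an X ratio of 4.64. With Y and unplaced contigs there were 3224 regions, 8.25% of all and 15.6% of L1, with 13.1 per kb, 1206 bp, 91.7% intergenic, 287 kb to a TSS, 9.83% L1_Mm, 44.4% L1_Mus and 28.6% Lx. At 10 kb or more from an L1Md region the shares were 4.6% of all and 8.07% of L1. The share near an L1Md region was 14.0% at 5 kb and 58.9% at 50 kb, and near a TSS 2.33% at 5 kb and 38.5% at 50 kb. By score as deposited the median was 12.7. Without both X windows the score per kb was 26.1, the TSS distance 114 kb and the X ratio 3.27, and without L1_Mm the score per kb was 13.6. In all, 40 of 133 values stayed within the main value's interval or within 1.5 times it, 91 moved and 2 reversed sign. The 133 include 35 values for shares of the smaller subfamily groups, not printed here, of which 18 moved. The median of the score as deposited, in another unit, is counted as moved without a comparison. No paired analysis was possible because no value is given for single libraries, and for the same reason no replicate was left out.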
